A study of Homo sapiens with 3 samples.

Results

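The sites described here are strong places in the genome at which the summits of an XPB peak and an XPD peak coincided. XPB and XPD are the helicase subunits of TFIIH, and each was mapped once by chromatin immunoprecipitation and sequencing (ChIP-seq). The cells were HT1080, a long-established line from a human fibrosarcoma, and the labels name no treatment. The series comprised 1 XPB library, 1 XPD library and 1 unenriched input library; the input was not analysed here. Each ChIP used a rabbit polyclonal antibody per its own antibody field, although the protocol text shared by the samples describes another antibody, against CSB. An XPB peak and an XPD peak formed a pair when each was the other's largest overlap in bp. A pair was strong when the deposited peak score reached 300 in both lists, and coincident when the summits were at most 100 bp apart. Of 5536 pairs, 1040 were strong, and 660 of these were coincident (63.5%, exact 95% interval 60.5 to 66.4). The other 380 strong pairs, with summits farther apart, are called displaced and serve as the comparison. The 660 sites made up 3.06% of the 21555 XPB peaks and 4.53% of the 14570 XPD peaks. They carried 9.06% of the summed XPB summit heights and 11.4% of the summed XPD summit heights.

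The sites were chosen by the deposited peak score and the summit distance, so both are given as descriptions. The summit height, which is the number of overlapping sequenced fragments at the highest point of a peak, is tied to the score and is likewise a description. With 1 library per antibody there was no replicate, and no difference was tested. Intervals describe counting error or the number of sites, not variation between cultures. Sequencing depth is unknown here, so heights were compared between antibodies only relative to the median ratio of all pairs.

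TFIIH joins RNA polymerase II at promoters, where XPB translocates on DNA and opens it around the start of transcription. XPD is needed mainly when the same complex unwinds damaged DNA in nucleotide excision repair, and it sits in the complex beside the kinase module. Both subunits are found together at active promoters, including those of the short, heavily transcribed genes for spliceosomal small nuclear RNAs. Positions are 1-based hg19 coordinates from the lists, given as the XPB peak interval. No hg19 annotation was used here: the genes named at sites come from general knowledge of the hg19 map, and a site for which that was not certain is left without a name. Exons, introns and strands were not assigned.

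Upstream sequences are shown for 6 genes named at coincident sites, to let their promoters be compared. They are the 100 bases before the annotated start from RefSeq's GRCh38.p14 promoter table, matched by symbol and written 5′ to 3′ on the gene's strand, so they show the gene's promoter and not the hg19 peak interval. Capitals mark TATAAA on either strand within the last 40 bases, the letters of a TATA box.
EEF1A1: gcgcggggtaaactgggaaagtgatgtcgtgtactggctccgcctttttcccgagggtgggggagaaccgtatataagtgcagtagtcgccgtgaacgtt
EIF4A2: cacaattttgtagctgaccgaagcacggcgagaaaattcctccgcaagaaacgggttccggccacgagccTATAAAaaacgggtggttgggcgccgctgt
RPS6: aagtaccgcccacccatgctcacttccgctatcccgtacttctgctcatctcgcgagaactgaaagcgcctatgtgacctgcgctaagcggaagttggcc
BTG1: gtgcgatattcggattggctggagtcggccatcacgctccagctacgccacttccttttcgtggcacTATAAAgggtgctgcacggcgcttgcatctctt
H3C2: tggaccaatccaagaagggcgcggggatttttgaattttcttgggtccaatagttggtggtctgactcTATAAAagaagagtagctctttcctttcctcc
H4C2: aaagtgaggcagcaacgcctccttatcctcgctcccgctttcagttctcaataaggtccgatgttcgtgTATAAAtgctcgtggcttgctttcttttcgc
Of the 31 genes named at coincident sites, 20 had a promoter that was read from this table. TATAAA lay in the last 40 bases before a start in 9 of the 20 (45%): BTG1, EIF4A2, H2AZ1, H3C1, H3C2, H4C2, MALAT1 at 1 of its starts, PPP1R15A and RPL22L1. Among all 35116 promoters in the table the share was 3.18%. CCAAT occurred on either strand in the 100 bases of 7 of the 20 (35%) and of 18.1% of all promoters, and GGGCGG in 6 (30%) and 31.3%. The named genes were recognised after the heights of their sites were known and include 5 histone genes, so these shares describe those genes only.

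Several of the tallest coincident sites lay at genes for small non-coding RNAs. Of the 15 with the greatest lower summit, 6 were given a gene, and 5 of these 6 encode small nuclear or small nucleolar RNAs. The other 9 sites were left without a name, so this is no share of all 15. Displaced pairs were given no gene names, so this is not shown to set coincident sites apart from them. The gene for U11 snRNA, RNU11, which serves the minor spliceosome that removes a rare class of introns, lay at a site at chr1:28974334-28975875. Its summits reached 635 fragments for XPB and 540 for XPD, 4 bp apart. RNU4ATAC, the U4atac snRNA gene of the same spliceosome, lay at chr2:122288036-122289205 and had 352 and 386 fragments. RNU12, for the U12 snRNA that recognises the branch point of those introns, lay at chr22:43010855-43012035 with 313 and 200. All of these minor spliceosome sites had summits within 28 bp of each other and reached the score ceiling of 3100 for both antibodies.

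A major spliceosome gene stood lower but also at the ceiling. RNU2-2, a gene for the U2 snRNA, lay at chr11:62608215-62610349 with 153 and 222 fragments and summits 2 bp apart. SNORD13, a small nucleolar RNA gene with its own promoter, lay at chr8:33370522-33371623 with 112 and 116 fragments. Its scores of 2860 for XPB and 2037 for XPD were below the ceiling. In all, 8 pairs had the ceiling score in both lists and 11 in at least 1, and each of them was coincident.

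The tallest member of all was at chr21:9825441-9827797, where MIR3648-1 lies in sequence related to the ribosomal RNA repeat. It had 2728 XPB and 2050 XPD fragments, 7 bp apart, and how reads from other copies of the repeat were placed was not tested. Several tall sites without a named gene were narrow. The site at chr8:70602181-70602708 was 528 bp wide in the XPB list, had 1094 and 775 fragments, and scored only 1033 and 562. At chr5:71146718-71147002 the XPB peak was 285 bp wide, the narrowest XPB peak of any member, with 405 and 283 fragments. At chrX:108297366-108297855 the heights were 316 and 197, and the summits fell on the same base. The other sites without a name were broader. They were chr1:149222589-149224856 (561 and 418), chr17:41438036-41439127 (417 and 317), chr2:121832480-121833404 (190 and 215), chr1:16839764-16841191 (184 and 186), chr17:39834028-39835446 (168 and 195) and chr2:133011999-133013062 (166 and 126). Of these 6, the first 4 reached the ceiling score for both antibodies, and the fourth had summits 67 bp apart, the widest separation among the 15.

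A pair with at least 100 fragments in both lists missed membership through its score in 2 cases. The tallest pair of the series, at chr1:91852662-91853220, had 3531 and 2583 fragments and summits 3 bp apart, but an XPD score of 263.7. The pair at chr12:127649752-127650639 had 164 and 102 fragments and an XPD score of 183.4. These 2 were looked up after their heights were seen. Whether the input is also high at any of these sites was not tested.

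Below the tallest 15, protein-coding genes were among those named. Another 25 members had at least 60 fragments in both lists, a limit set after the values were seen, and 9 of them were given a gene. EEF1A1, the elongation factor that brings aminoacyl-tRNA to the ribosome, lay at chr6:74229757-74231595 with 107 XPB and 123 XPD fragments. EIF4A2, a translation initiation helicase, lay at chr3:186500656-186502470 with 87 and 100. RPS6, a protein of the small ribosomal subunit, lay at chr9:19379500-19380672 with 83 and 88. RPL22L1, a ribosomal protein paralog, lay at chr3:170587328-170588295 with 70 and 67. At these 4 genes the log2 ratio of XPD to XPB height, relative to the median of all pairs, ran from -0.17 to 0.09. Each counting interval included 0, and the summits were 3 to 56 bp apart.

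Genes for other abundant transcripts stood at similar heights. The linker histone gene H1-2 at chr6:26055751-26057038 had 82 XPB and 89 XPD fragments. BTG1, a growth-restraining gene, at chr12:92539389-92540469 had 73 and 81. Non-coding RNA genes were again present. SNHG3, a host gene of small nucleolar RNAs, lay at chr1:28831935-28833397 and had 81 and 78. RPPH1, the RNA component of RNase P, lay at chr14:20810977-20812084 with 78 and 126. It was the only 1 of these 25 sites whose counting interval lay above the median ratio. The interval lay below that ratio at 3 of the 25 and included it at 21, without adjustment for the number of sites. MALAT1, an abundant nuclear RNA, lay at chr11:65266329-65266798 with 69 and 62.

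Across all 660 coincident sites the XPB height had a median of 23 fragments (exact 95% interval of the median 22 to 24, quartiles 17 and 32, range 8 to 2728). The XPD height also had a median of 23 (22 to 24, quartiles 18 and 32.25, range 10 to 2050). Displaced pairs were lower, with medians of 16 for XPB (16 to 17, range 7 to 130) and 17 for XPD (16 to 17, range 9 to 95). The intervals of the 2 sets did not overlap for either antibody, but the sets themselves overlapped widely. The tall end held few displaced pairs: 53 coincident pairs and 2 displaced pairs had at least 50 fragments in both lists, and 17 coincident and 0 displaced pairs had at least 100. Spearman's rho between XPB and XPD heights was 0.76 over the coincident sites and 0.56 over the displaced pairs, as a description across sites that share the same libraries and differ in range of heights.

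**Figure D1:**
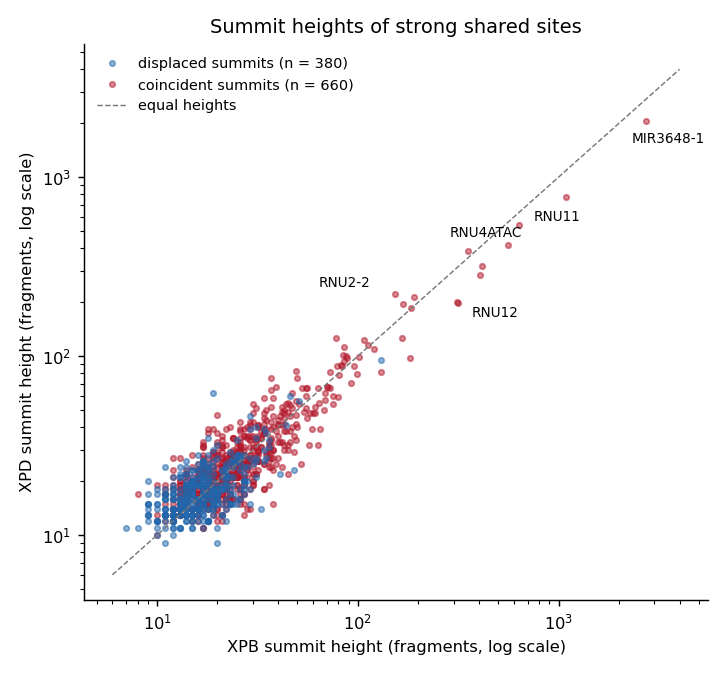
XPB summit height against XPD summit height, in fragments on log axes, for each of the 660 coincident (red) and 380 displaced (blue) strong pairs, with a dashed line at equal heights. Above 100 fragments in both lists all points are coincident sites, among them the genes labelled in the plot.

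Coincidence was more frequent at taller sites. Among strong pairs with 7 to 12 fragments at the lower summit, 34 of 129 (26.4%, 19.0 to 34.8) were coincident. The share was 47.4% (40.7 to 54.1) at 13 to 15 fragments, 63.2% (57.5 to 68.7) at 16 to 20, 81.0% (75.4 to 85.9) at 21 to 30 and 91.7% (84.9 to 96.2) at 31 to 60. Above 60 fragments, 39 of 40 were coincident (97.5%, 86.8 to 99.9). The intervals of neighbouring classes did not overlap from the lowest class up to 21 to 30 fragments, and from there upwards they did. How precisely the caller places a low summit was not tested. Among the 4496 pairs below the score limit, 47.7% (46.2 to 49.2) had summits within 100 bp.

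Within the coincident sites the summits were much closer than the limit. The median distance was 18.5 bp (quartiles 7 and 44), 217 sites (32.9%) were within 10 bp, 388 (58.8%) within 25 bp and 523 (79.2%) within 50 bp. The XPD summit had the higher coordinate at 321 sites, the lower at 331 and the same base at 8. The distance shortened with height, from a median of 25 bp at 7 to 12 fragments and 28 bp at 13 to 15 to 10.5 bp at 31 to 60 and 7 bp above 60. Fragments of 400 to 700 bp were selected for these libraries, so the closest summits lay far within 1 fragment length.

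**Figure D2:**
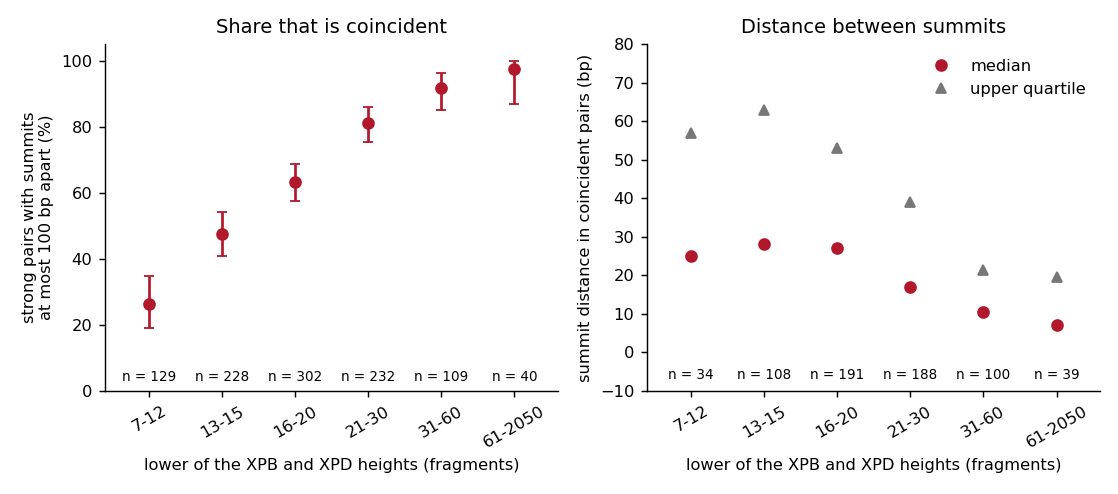
Left, percent of strong pairs with coincident summits by the lower of the XPB and XPD heights, with exact 95% intervals; right, median (circles) and upper quartile (triangles) of the summit distance in the coincident pairs, in bp. The share rises from 26.4% to 97.5% and the median distance falls from 25 to 7 bp between the lowest and highest classes.

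The 5 tallest displaced pairs had no gene named, which does not show that no gene lies there. Genes were named at coincident sites only, so the named genes cannot be compared between coincident and displaced pairs. Whether displaced pairs also lie at small RNA genes was not tested. The tallest of the 5, at chr1:45187135-45188542, had 130 XPB and 95 XPD fragments and summits 201 bp apart. The others had 51 and 56 fragments at chr14:24052816-24054052, 46 and 60 at chr12:120728293-120731380, 44 and 41 at chr21:11143471-11146208, and 35 and 37 at chr1:17231067-17232467. The summits of these 4 were 106, 1390, 2063 and 346 bp apart. In the chromosome 12 pair the XPB summit, at 120731025, lay beyond the end of the paired XPD peak at 120730279. The nearest other XPD summit was 1399 bp from the paired XPD summit. Whether that other XPD summit coincided with the XPB summit was not tested, so this displacement may come from the pairing by largest overlap.

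The height ratio of XPD to XPB was close to that of all pairs at most coincident sites. Relative to the median ratio of the 5536 pairs, which was 1.08, the median log2 ratio was -0.04 (interval -0.11 to -0.01, quartiles -0.34 and 0.19) at coincident sites and -0.03 (-0.11 to 0.01) at displaced pairs. A departure of more than 1.5-fold towards XPD occurred at 34 coincident sites (5.15%), against 7.79% of all pairs. Towards XPB it occurred at 69 (10.5%), against 9.23% of all pairs. Displaced pairs gave 5.00 and 8.95%. The count towards XPB was therefore near the background, and the count towards XPD was below it. With at least 20 fragments in both lists the shares were 4.52 and 8.19% of 354 coincident sites, beside 2.89 and 8.16% of all 588 such pairs, so the order of the shares towards XPD turned round.

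The very tallest sites leaned towards XPB. Of the 8 coincident sites with at least 200 fragments in both lists, 7 were below the median ratio, and their median log2 ratio was -0.53. Among the 15 tallest, the 95% counting interval lay below the median ratio at 9, above it at 1 and included it at 5. Besides RNU11 and RNU12, those 9 were the MIR3648-1 site (-0.52) and sites without a named gene (-0.50 to -0.79). The unnamed ones included the narrow sites described above, such as that on chromosome 8 with 1094 XPB fragments but scores of 1033 and 562. Whether input signal or repeated sequence contributes at these sites was not tested. The lean is therefore not shown to be a trait of tall TFIIH sites. The median ratio came from mostly low pairs, with median heights of 13 and 14 fragments over all 5536. Whether it holds as a reference for tall sites was not tested. RNU12 had a log2 ratio of -0.75 (-1.02 to -0.49) and RNU11 of -0.34 (-0.51 to -0.17). RNU2-2 was the exception towards XPD, at 0.43 (0.13 to 0.74). RNU4ATAC at 0.03 (-0.19 to 0.24) and SNORD13 at -0.06 (-0.44 to 0.33) were not distinguishable from the median by counting error. The counting intervals of RNU12 and RNU2-2 did not overlap.

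Of the 5 highest and 5 lowest ratios among sites with at least 20 fragments in both lists, 5 fell on sites with a gene named and 5 on sites without. RNU5A-1, at chr15:65587848-65589223, had 37 XPB and 75 XPD fragments, a log2 ratio of 0.91 (0.33 to 1.52). The ribosomal protein genes RPLP1, at chr15:69744247-69745381 (30 and 54), and RPS24, at chr10:79793295-79793853 (22 and 39), stood at 0.74 (0.07 to 1.44) and 0.72 (-0.07 to 1.54). The highest ratio was at chr17:41444800-41446326 with 20 and 47 fragments, at 1.13 (0.34 to 1.96), and the third highest at chr14:81685452-81686156 with 20 and 37, at 0.78 (-0.04 to 1.64). In the direction of XPB, NME1, a nucleoside diphosphate kinase gene at chr17:49230568-49231263, had 52 and 25 fragments and a log2 ratio of -1.16 (-1.91 to -0.45). The promoter shared by MRPL30, a mitochondrial ribosomal protein gene, and MITD1, at chr2:99797212-99798062, had 63 and 32, at -1.08 (-1.75 to -0.45). The others were at chr7:2912521-2914366 (45 and 22, -1.14), chr17:18966850-18967394 (181 and 98, -0.99) and chr1:148604694-148605155 (57 and 32, -0.94). These 10 sites were chosen as extremes, and their intervals were not adjusted for that choice.

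**Figure D3:**
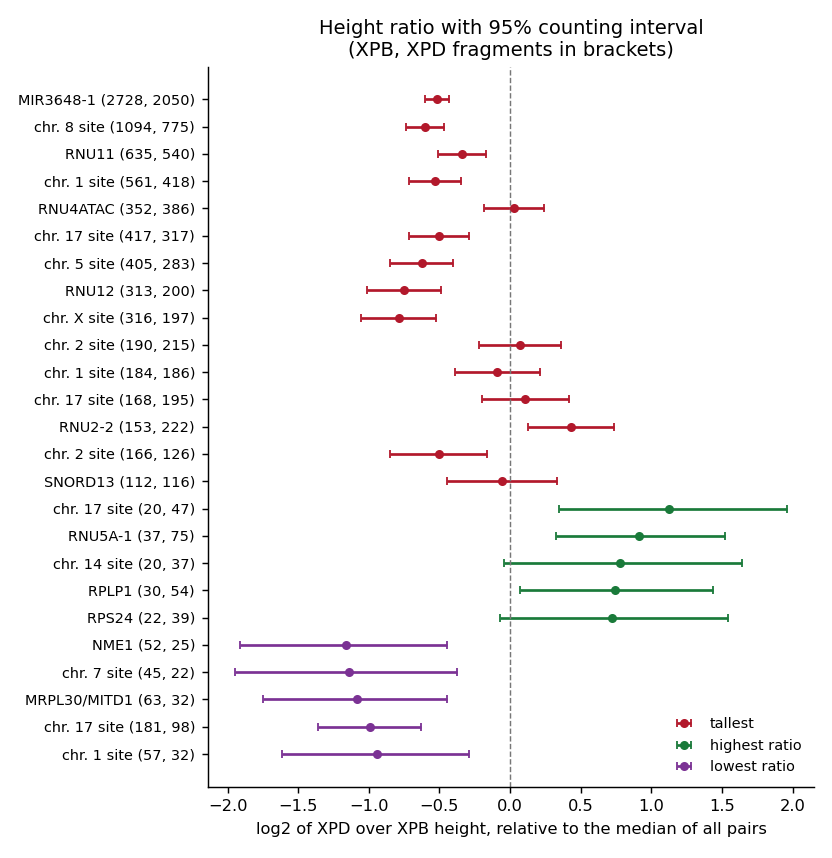
Log2 of the XPD over XPB summit height relative to the median of all pairs, with 95% counting intervals, for the 15 tallest coincident sites (red) and the 5 highest (green) and 5 lowest (purple) ratios at 20 or more fragments; heights are in brackets. Of the 15 tallest, 9 intervals lie below 0 and only that of RNU2-2 lies above it.

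Coincident sites were narrower than displaced pairs although taller. Their median width was 1164 bp in the XPB list (interval 1117 to 1202) and 1219 bp in the XPD list (1166 to 1258). Displaced pairs had 1401.5 bp (1326 to 1496) and 1548.5 bp (1474 to 1631), and pairs below the score limit had 915 and 986 bp. A narrow peak leaves less room for 2 summits to part, so width is not independent of the summit limit. The sets differed in height as well, and within classes of height the order of widths was mostly kept. At 21 to 30 fragments the median XPB width was 1046.5 bp at coincident and 1421.5 bp at displaced pairs. At 13 to 15 fragments the widths were 1370.5 and 1365 bp, the only class up to 60 fragments in which the XPB order turned round. For XPD the coincident pairs were narrower in each class, but only 9 displaced pairs had 31 to 60 fragments and only 1 had more. The shared part of the peaks covered a median of 76.4% of their union at coincident sites and 75.5% at displaced pairs, so the intervals themselves matched about equally well.

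**Figure D4:**
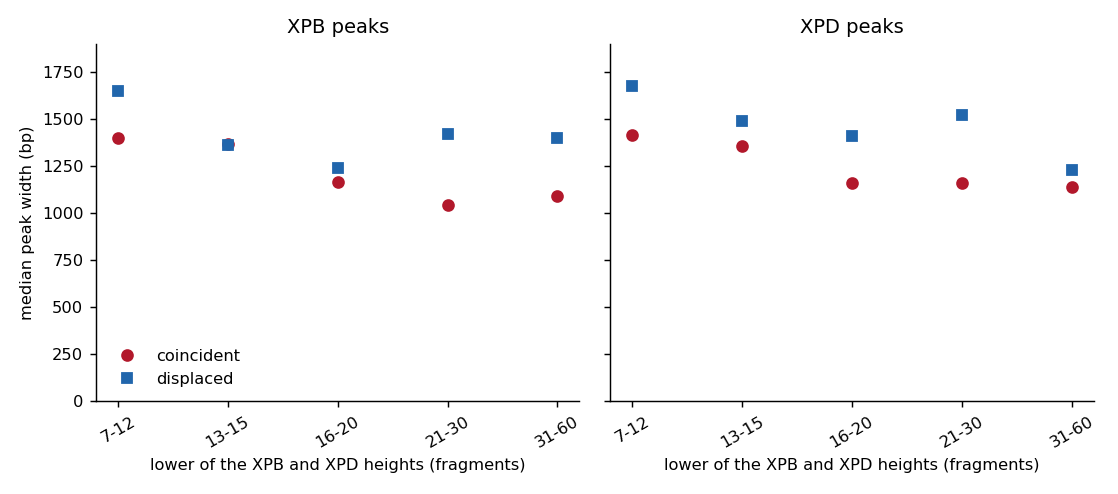
Median peak width in bp of coincident (circles) and displaced (squares) strong pairs by the lower summit height, for XPB peaks on the left and XPD peaks on the right. Coincident pairs are narrower in each class shown except for XPB peaks at 13 to 15 fragments, where the medians are 1370.5 and 1365 bp. The class of 31 to 60 fragments holds only 9 displaced pairs.

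The position of the summit within its own peak is partly fixed by the choice of sites, since in peaks that overlap well 2 summits far apart cannot both be central. It is given as a description. At coincident sites the median distance from summit to peak centre was 135 bp in the XPB list (interval 125.5 to 154) and 151 bp in the XPD list (137.5 to 169). At displaced pairs it was 254 bp (215.5 to 279) and 258.5 bp (235 to 302.5). As a share of the peak width this was 13.2 and 13.3% at coincident sites, 19.0 and 18.6% at displaced pairs, and 16.1% in both lists at pairs below the score limit. A peak of either list overlapped 2 or more peaks of the other at 56 coincident sites (8.48%, 6.47 to 10.9) and at 61 displaced pairs (16.1%, 12.5 to 20.1).

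The mean width of the paired peaks ran from 410 to 5394.5 bp among the coincident sites. The widest was at chr20:33890555-33895494, with an XPB peak of 4940 bp, an XPD peak of 5849 bp and summits of 32 and 41 fragments. PPP1R15A, a stress-induced phosphatase regulator at chr19:49375214-49377987, had widths of 2774 and 4930 bp and 32 and 29 fragments. ITGA3, an integrin gene at chr17:48139037-48142491, had 3455 and 3323 bp with only 18 and 16 fragments. The other 2 of the 5 widest were at chr17:8124589-8127974 (19 and 26 fragments) and chr1:45272432-45276045 (23 and 19). The narrow end held H2AZ1, a histone variant gene at chr4:100871165-100871526 (362 and 458 bp, 24 and 35 fragments). It also held AZIN1, a regulator of polyamine synthesis at chr8:103876094-103876588 (495 and 376 bp, 25 and 22 fragments). SLC38A2, an amino acid transporter gene at chr12:46766166-46766653, had 488 and 417 bp with 26 and 35 fragments. The unnamed site at chr17:21902951-21903403 had 453 and 427 bp with 46 and 53 fragments, and the remaining one of the 5 narrowest was the chromosome 5 site of 285 bp described above.

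Height and score ordered the coincident sites differently, and width went with the score. The 165 sites of smallest mean width had a median XPB score of 452 and XPD score of 386, with median heights of 25 and 27. The 165 widest had median scores of 716 and 537, with heights of 22 and 22. Among the 100 tallest members, 15 were not among the 200 highest scores, and their median mean width was 922.5 bp. Among the 100 highest scores, 13 were not among the 200 tallest, and their median mean width was 1855.5 bp. Spearman's rho over the 660 sites was 0.58 between lower height and lower score, 0.29 between mean width and lower score, and -0.19 between lower height and mean width.

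Coincident sites often had close neighbours in their own lists but were mostly far from each other. Both held for displaced pairs as well. Another XPB peak lay within 10 kb of 371 sites (56.2%, 52.3 to 60.04), and another XPD peak within 10 kb of 305 (46.2%, 42.4 to 50.1). Over all peaks of each list these shares were 41.8 and 34.5%. Over all 5536 pairs they were 52.2 and 41.8%, so much of the excess was shared by paired peaks in general. Displaced pairs had 64.7% (59.7 to 69.5) and 52.1% (47.0 to 57.2). The difference, coincident minus displaced, was -8.52 percentage points (interval -14.5 to -2.34) in the XPB list and -5.89 (-12.1 to 0.41) in the XPD list. The XPD interval included 0 at 10 kb but not at 5 kb (-7.12, -13.2 to -1.08) or 50 kb (-6.77, -11.3 to -1.97). The XPB differences were -6.33 (-12.6 to -0.05) at 5 kb and -6.80 (-10.5 to -2.78) at 50 kb, so the antibodies are not shown to differ in this. With 16 to 30 fragments at the lower summit, a restriction added after seeing the data, it was -7.58 points (-16.4 to 1.69) for XPB and -6.41 (-15.6 to 2.85) for XPD. Over the members there were 751 such XPB neighbours, counted once for each member, with a median score of 228. Of these, 228 (30.4%) scored 300 or more and 417 (55.5%) had no mutual partner in the XPD list. The 550 neighbours of displaced pairs gave nearly the same shares, 32% and 56.7%. Over all XPB peaks 74.3% lacked a mutual partner and 14.3% scored 300 or more.

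**Figure D5:**
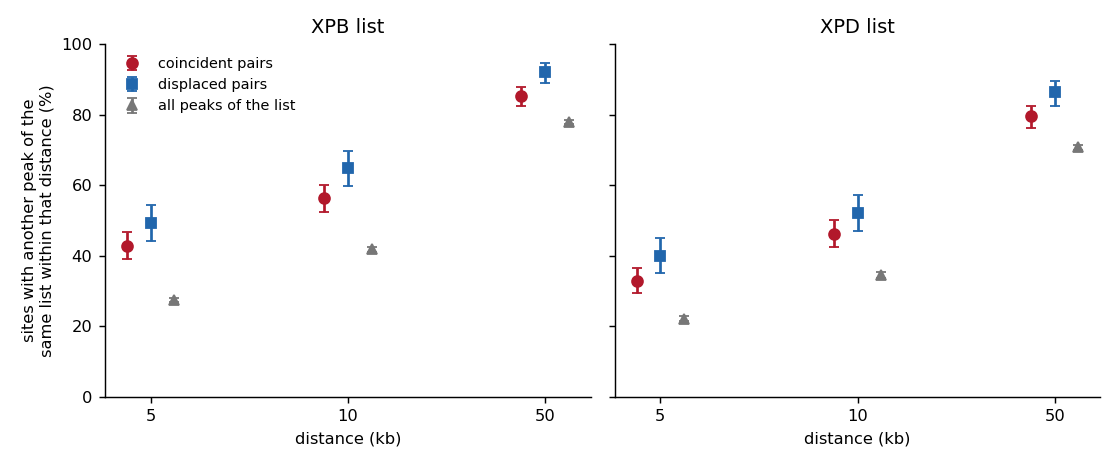
Percent of coincident pairs (circles), displaced pairs (squares) and all peaks of a list (triangles) with another peak of the same list within 5, 10 or 50 kb, with exact 95% intervals. In the XPB list at 10 kb the values are 56.2, 64.7 and 41.8%.

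The nearest other coincident site was a median of 448 kb away (quartiles 71.2 and 1606 kb), and 192 of the 660 had one within 100 kb. From a displaced pair the nearest other displaced pair was a median of 703 kb away. These distances depend on the size of each set. Another site of the same set lay within 10 kb of 46 of the 660 coincident sites and 28 of the 380 displaced pairs. Chaining sites within 10 kb left 614 single sites, 20 groups of 2 and 2 groups of 3. Both groups of 3 were on chromosome 6. The first spanned replication-dependent histone genes, whose mRNAs are made in S phase to package new DNA. From 26020392 to 26032574 it held H3C1 (26 XPB and 30 XPD fragments), H4C2 (49 and 34) and H3C2 (40 and 42), with summits 32, 5 and 1 bp apart. The second, from 30709255 to 30717200, held FLOT1, a membrane scaffold gene (13 and 14), IER3, an immediate early gene (55 and 51), and a site without a name (30 and 31). Of the groups of 2, the tallest was at chr1:149214611-149224856, where a site of 93 and 71 fragments stood beside the unnamed site of 561 and 418.

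Coincident sites were found on all 22 autosomes and chromosome X. Chromosome 1 held the most, 79 (12.0% of the sites and 11.2% of all pairs), followed by chromosome 3 with 66 (10% and 13.1%) and chromosome 17 with 61 (9.24 and 6.54%). The coincident share of strong pairs ran from 40.7% (22.4 to 61.2) on chromosome 22, with 11 of 27, to 75% (53.3 to 90.2) on chromosome 15 among the autosomes, a value also reached by 6 of 8 on chromosome 18. Of the 6 strong pairs on chromosome X, 5 were coincident (83.3%, 35.9 to 99.6), while chromosome Y had 0 strong pairs. Intervals of single chromosomes were wide, and that of chromosome 22 did not reach the overall share of 63.5%. Chromosome 22 was picked as the lowest, and its interval was not adjusted for the number of chromosomes, so it is not shown to be an exception.

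The lower heights of the 3 sites nearest each limit overlapped those of the 3 just beyond it, which is too few to compare further. The 3 members with summits 100 bp apart had lower heights of 29, 16 and 14 fragments, on chromosomes 6, 20 and 10. The nearest pairs outside had summits 101, 102 and 103 bp apart and lower heights of 16, 27 and 19. Another pair at 103 bp, on chromosome 4, had a lower height of 15. At the score limit the 3 members closest to it had lower scores of 300.1, 300.5 and 300.6 and lower heights of 18, 13 and 13. The closest pairs outside it, with summits within 100 bp, scored 299.9, 299.6 and 299.4 and had 19, 11 and 10.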

How the data were processed

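XPB and XPD were each mapped by ChIP-seq in 1 library, and peaks were described in hg19. Per the submitters' processing notes, the authors aligned reads with Bowtie 0.12.7 and called peaks with MACS 1.4; the control and caller settings are not given in the sources used here. The files have no header; read in the format MACS writes, the score the authors deposited is a log-transformed p-value (lowest 150, ceiling 3100), and the deposited summit signal is the pileup height in fragments, not scaled to depth. Depth per library is unknown.

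Scores, heights and summits were joined by peak name. Mutual largest overlaps of at least 1 bp were paired and classed, and functions were tested on simulated lists. Shares carry Clopper-Pearson 95% intervals, medians exact binomial (order-statistic) intervals, height ratios exact binomial counting intervals, and differences of shares intervals built from Wilson limits. They cover counting error or, for medians, the number of sites, and not variation between cultures. No p-value is given.

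Sites named were the 15 tallest by the lower height, the 5 highest and 5 lowest ratios at 20 or more fragments, the 5 widest and 5 narrowest, the 3 nearest each limit, the 5 tallest displaced pairs and the 3 largest groups within 10 kb (20 groups tied for the third place, of which the tallest was taken). Sites of 60 or more fragments were added after their values were seen. The sites and lists were chosen with earlier results of these data known. Gene names were checked only for symbol and chromosome in RefSeq's GRCh38.p14 table; the planned distances to genes could not be run without an hg19 annotation. Promoters of genes on chromosome 8 were not read. Alternatives for the score, summit, overlap, height and neighbour limits are given in the closing section. Python 3.11.15, numpy 2.4.6, pandas 2.3.3, scipy 1.17.1 and matplotlib 3.10.9 were used.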

Additional observations from a re-analysis of the deposited data

How the results depend on the processing

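Of 74 values under other settings, 61 lay inside the interval given for the value in the report, while 13 did not. The difference in median log2 height ratio, coincident minus displaced, was -0.01 with an interval that included 0. It took the other sign in 2 settings, at 0.01 both with summits within 150 bp and without the top 1% of heights, and was 0 at 16 to 30 fragments, so it has no direction. The difference in the share with an XPD neighbour, whose interval included 0 as reported, kept its sign in each setting. Its interval excluded 0 at 5 kb, at 50 kb, at scores of 200 (-8.39, -12.1 to -4.61) and with summits within 150 bp (-7.11, -13.6 to -0.52). For XPB the interval included 0 only at 16 to 30 fragments. The coincident share of strong pairs (63.5%) was 56.3% with scores of at least 200 in both, 69.3% at 400, 50.3% with summits within 50 bp, 69.3% within 150 bp, and 56.7% without the top 1% of either height. That last setting left 474 coincident and 362 displaced pairs, from 660 and 380, so it removed far more than 1% of the strong pairs. The ratio of median heights, coincident over displaced, was 1.44 for XPB (interval 1.29 to 1.5) and 1.35 for XPD (1.29 to 1.5). It was 1.20 for XPD at scores of 200, 1.61 and 1.53 at 400, 1.25 and 1.18 without the top 1%, and 1.10 and 1.15 with 16 to 30 fragments at the lower summit, a restriction that itself narrows heights and was chosen after seeing the data. The ratio of median XPB widths (0.83, interval 0.75 to 0.91) was 0.74 at scores of 400. Requiring a reciprocal overlap of 50% moved none of the values, and leaving out chromosome 3 kept the coincident share within its interval. No paired analysis was possible because each antibody had 1 library, and no replicate could be left out. The score floor of 150 and the unknown depth limit how far low or missing summits can be read.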
